A study of Mus musculus with 61 samples.

Results

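The checkpoint and CD28-family receptors were followed as 10 genes of the 24421 in the count files, chosen by symbol: *Pdcd1*, *Ctla4*, *Btla*, *Lag3*, *Havcr2*, *Tigit*, *Cd160*, *Cd274*, *Icos* and *Cd28*. They were measured by total RNA-seq in 61 libraries from mice labelled C57BL/6 and 2 months old. STAT5B is a transcription factor that cytokines such as IL-2 and IL-7 activate, and the study compared the native protein with the SH2-domain variants Y665F, Y665H and N642H. In the first experiment, 30 libraries were made from naive CD4+ T cells of pooled lymph nodes and spleens, either WT or Stat5a/b-null. These cells were activated with antibodies to the T-cell receptor and to CD28, transduced with an empty retroviral vector or one encoding native STAT5B, N642H, Y665F or Y665H, held for 48 h in IL-2 and sorted as CD4+GFP+ (3 libraries in each of 10 groups). In the null cells a *Cd4-Cre* transgene had deleted the floxed *Stat5a* and *Stat5b* genes during thymic development. The genotype label reads floxed in all 30 libraries, so the background was taken from the titles. In the second experiment, total splenic T cells were cultured for 24 h with IL-2 and IL-7 from WT (4 libraries), *Stat5b* Y665H (4 count files, of which 3 are distinct) and *Stat5b* Y665F (4) mice. Y665F T cells without interleukins (3 libraries) were sequenced as well. The paper calls them unstimulated, and whether they were cultured is not given. The counts of Y665H library 4 equalled the sum of libraries 1 and 2 in each of the 24421 genes (5327354 reads against 3310342 and 2017012), so it was left out and 60 libraries entered the comparisons. The third experiment sampled spleens of WT (4), Y665H (5) and Y665F (7) mice, the variants being homozygous knock-ins made by genome editing in C57BL/6N mice. These libraries are titled splenocytes and sourced as spleen.

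T cells integrate the signal of the antigen receptor with those of co-receptors that raise or restrain it. CD28 is the classical co-stimulatory receptor and ICOS its inducible relative, both binding ligands of the B7 family. CTLA-4 competes with CD28 for those ligands, PD-1 (*Pdcd1*) and BTLA carry inhibitory motifs that recruit phosphatases, and PD-L1 (*Cd274*) is the ligand of PD-1. LAG-3, TIM-3 (*Havcr2*), TIGIT and CD160 are checkpoint receptors outside the CD28 family. STAT5 transmits IL-2 signals that shape effector and regulatory T cells.

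Depth was 18825994 to 49850689 gene-assigned reads in the CD4+ libraries, 2017012 to 27394249 in the splenic T cells and 24203179 to 43330536 in the spleens. Reads that fell in no gene made up 10.9 to 19.3% in the CD4+ libraries, 48.8 to 78.5% in the splenic T cells and 59.8 to 66.8% in the spleens. Levels are given as CPM, the read count of a gene scaled to a fixed library size. *Stat5b* stood at 2.78 to 9.49 CPM in the null empty-vector libraries and at 187 to 209 CPM in the WT ones. *Stat5a*, which no vector supplied, stayed at 14.9 CPM or less in all null groups and at 99.5 CPM or more in all WT groups, as the titles say. In WT cells the libraries numbered 3 stood apart: *Btla*, *Pdcd1*, *Cd160* and *Cd274* were highest in library 3 in 5 of 5 vector groups. The extraction label names mammary tissue, but 12 T cell genes summed to 4083 to 6578 CPM in the CD4+ libraries, and B cell genes summed to 4.93 CPM or less in the empty-vector groups. In the cultured splenic T cells, Y665F libraries 3 and 4 carried B cell genes at summed levels of 724 and 213 CPM, against 14.9 to 113 CPM in the WT libraries. Y665F library 3 and Y665H libraries 1 and 2 were shallow, with 2851451, 3310342 and 2017012 reads.

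Per kilobase of exon, *Ctla4* and *Btla* led in WT CD4+ cells with the empty vector, each at a mean of 122 CPM per kb. *Icos* (72.9), *Lag3* (65.5), *Pdcd1* (59.3) and *Cd28* (54.4 CPM per kb) followed, and *Tigit* (28.6) and *Cd274* (27.1 CPM per kb) came next. *Cd160* was at 3.36 and *Havcr2* at 0.148 CPM per kb. In null cells carrying the empty vector *Btla* came first at 241 CPM per kb, then *Pdcd1* at 132, *Lag3* at 95.7 and *Ctla4* at 94.5, and *Cd160* reached 17.9 CPM per kb. In cultured WT splenic T cells *Btla*, *Cd28*, *Icos* and *Ctla4* lay between 37.7 and 49.4 CPM per kb, and *Lag3* was lowest at 0.34. Whole WT spleens showed another order, with *Btla* at 206, *Cd274* at 22.1, *Havcr2* at 21.8 and *Pdcd1* last at 2.36 CPM per kb. Spleens also hold B cells and macrophages, and the 8 B cell genes summed to between 4036 and 4599 CPM in the WT spleens. B cells express *Btla* and myeloid cells express *Havcr2*, so these levels cannot be read as T cell levels.

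**Figure D1:**
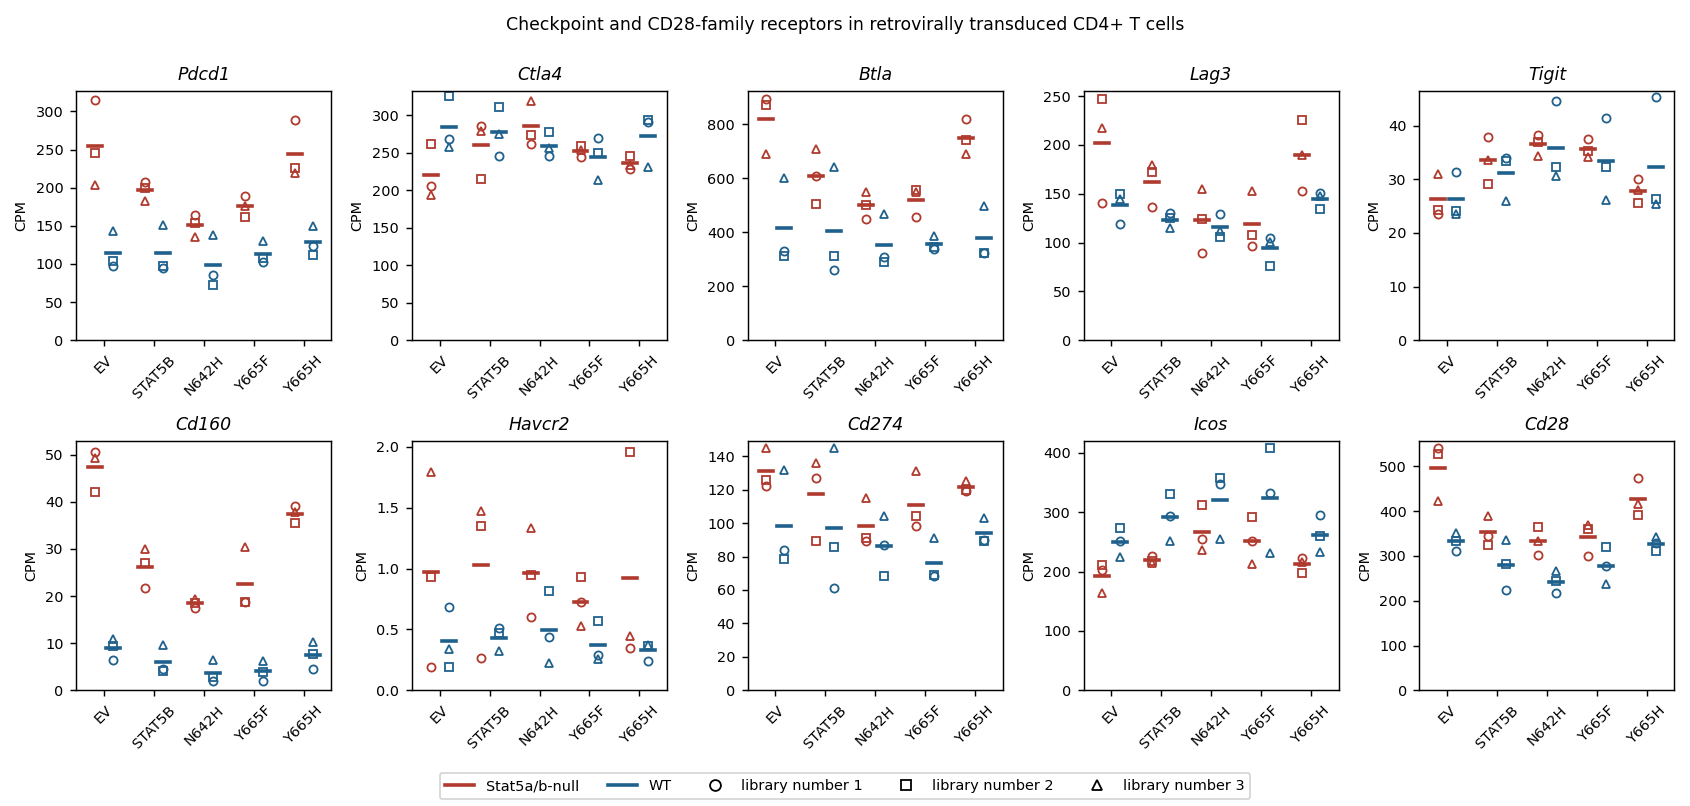
CPM (vertical axes from 0) of the 10 receptor genes in transduced CD4+ T cells, by vector (EV, empty vector). Symbols are libraries by number and bars are means of 3 libraries, in Stat5a/b-null (red) and WT (blue) cells. *Cd160* in null cells with the empty vector (42.1 to 50.5 CPM) lay above every WT library (1.91 to 10.8 CPM).

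The first comparison asked how the receptors differ in the absence of STAT5. *Cd160*, *Pdcd1*, *Btla* and *Cd28* were higher in null than in WT cells when both carried the empty vector, and no receptor was lower at the threshold. These were 4 of 10 receptors, against 13.9% of 21975 genes tested that differed in either direction (higher, 6.83%). The median log2 fold change of the 10 was 0.56 and that of all genes −0.12. In bulk libraries a change in the share of a cell subset and a change of transcript per cell cannot be told apart.

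*Cd160*, a receptor for the herpesvirus entry mediator best known from CD8+ T and NK cells, showed the largest difference. Its level was 50.5, 42.1 and 49.3 CPM in the 3 null libraries and 6.38, 9.48 and 10.8 CPM in the WT ones. The groups did not overlap, and the log2 fold change was 2.41 ± 0.36 (SE; adjusted p = 3.52e-05), or 5.31-fold. Genes of effector and memory CD8+ T cells stood higher in the same null libraries, where 7 of them summed to 118 to 285 CPM against 19.5 to 21.7 CPM in WT, although 1 of 7 passed the test (median log2 fold change 1.01). *Cd8a* and *Cd8b1* summed to 15.1 to 20.3 CPM against 6.29 to 7.62 CPM. *Cd8a* alone was at 0 to 0.414 CPM in the null and 0 to 0.168 CPM in the WT libraries. The cells were chosen as naive CD4+ T cells and sorted as CD4+GFP+. The part of CD8+ cells in the *Cd160* difference was not tested. *Pdcd1* was at 315, 245 and 204 CPM in null and at 96.7, 104 and 143 CPM in WT cells, again without overlap (1.15 ± 0.21, adjusted p = 0.000278). *Btla* read 892, 870 and 689 CPM against 329, 312 and 601 CPM. WT library 3 came close to the lowest null library, and the log2 fold change of 0.98 ± 0.26 (adjusted p = 0.0102) fell to 0.84 (adjusted p = 0.0669) without WT library 1 and to 0.81 (adjusted p = 0.0881) without WT library 2. *Cd28* was at 541, 528 and 423 CPM in null and 312, 334 and 352 CPM in WT cells (0.58 ± 0.14, adjusted p = 0.00513).

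*Lag3*, which binds MHC class II, and *Ctla4* lay just outside the threshold, at 0.55 ± 0.20 (adjusted p = 0.0639) and −0.37 ± 0.14 (adjusted p = 0.0716). *Icos* read 202, 211 and 164 CPM in null against 252, 274 and 224 CPM in WT cells, a log2 difference of −0.38 ± 0.17 (adjusted p = 0.144). *Cd274* differed by 0.42 ± 0.22 (adjusted p = 0.243). Without the WT libraries numbered 3, an alternative chosen after seeing the data, 7 receptors passed, against 17.4% of genes: *Cd274* rose by 0.70 (adjusted p = 0.00298), whereas *Ctla4* at −0.42 (adjusted p = 0.0349) and *Icos* at −0.44 (adjusted p = 0.039) were lower in null cells. *Tigit* means were 26.2 CPM in null and 26.3 CPM in WT cells. *Havcr2* gave at most 62 reads in any CD4+ library, with means of 0.972 CPM in null and 0.404 CPM in WT cells (1.27 ± 0.69, 95% interval −0.15 to 2.68, adjusted p = 0.251), and the groups overlapped.

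*Cd160* lies on chromosome 3 (96798763 to 96829351, minus strand, GRCm38) and overlaps *Pdzk1* on the opposite strand. The strand setting of the counting is not given in the sources used here, so reads of the 2 genes may not be separated. RefSeq promoter windows were found for 7 of the 10 receptors, 8 windows in all. The palindromic STAT motif TTCNNNGAA, searched in the 250 bases before each start, occurred in 1 of them, against 7.02% of 32851 windows genome-wide. That window belongs to the inner of the 2 *Cd160* starts, so both *Cd160* windows are shown, as the strand reads 5′ to 3′ (GRCm38.p6), with the motif in capitals.
*Cd160* outer start, chr3:96829352-96829601, minus strand: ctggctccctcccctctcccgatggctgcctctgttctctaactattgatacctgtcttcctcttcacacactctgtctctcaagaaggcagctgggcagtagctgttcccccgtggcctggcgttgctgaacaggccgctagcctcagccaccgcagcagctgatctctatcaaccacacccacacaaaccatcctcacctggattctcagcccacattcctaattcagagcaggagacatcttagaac
*Cd160* inner start, chr3:96814522-96814771, minus strand: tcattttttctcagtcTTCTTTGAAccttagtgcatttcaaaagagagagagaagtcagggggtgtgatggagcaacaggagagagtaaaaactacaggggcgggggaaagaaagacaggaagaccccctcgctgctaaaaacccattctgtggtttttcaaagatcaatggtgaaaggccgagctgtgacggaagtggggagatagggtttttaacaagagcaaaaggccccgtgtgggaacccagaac
The motif begins at position -234 relative to the inner start. The match is a description of the letters and says nothing of occupancy.

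The next comparisons asked which receptors moved when STAT5B was put back into null cells. Native STAT5B lowered *Cd160*, the only one of 10 receptors past the threshold, against 1.52% of 20113 genes (lower, 0.567%). N642H changed 7 of 10, with *Cd160*, *Pdcd1*, *Lag3*, *Btla* and *Cd28* lower and *Icos* and *Tigit* higher, against 11.6% of genes (lower 5.97%, higher 5.67%). Y665F changed 6 of 10, the same genes but *Icos*, against 9.58% of genes (lower 4.42%, higher 5.16%). Y665H changed none of 10, against 0.0249% of genes. The median log2 fold changes of the receptors were −0.25, −0.53, −0.49 and −0.07 for native STAT5B, N642H, Y665F and Y665H, and those of all genes ranged from −0.02 to 0.04. These 4 comparisons share the empty-vector libraries.

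Library numbers paired the null libraries, since same-numbered libraries deviated from their group means together. With the number as a block, 4 receptors changed with native STAT5B: *Cd28* (−0.50, adjusted p = 0.00857), *Btla* (−0.44, adjusted p = 0.0308) and *Pdcd1* (−0.37, adjusted p = 0.015) joined *Cd160*, where 9.5% of all genes passed. The block added *Cd274* for N642H (−0.46, adjusted p = 0.00404; 20.5% of genes) and *Icos* for Y665F (0.36, adjusted p = 0.0207; 18.4% of genes). It still called none for Y665H.

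**Figure D2:**
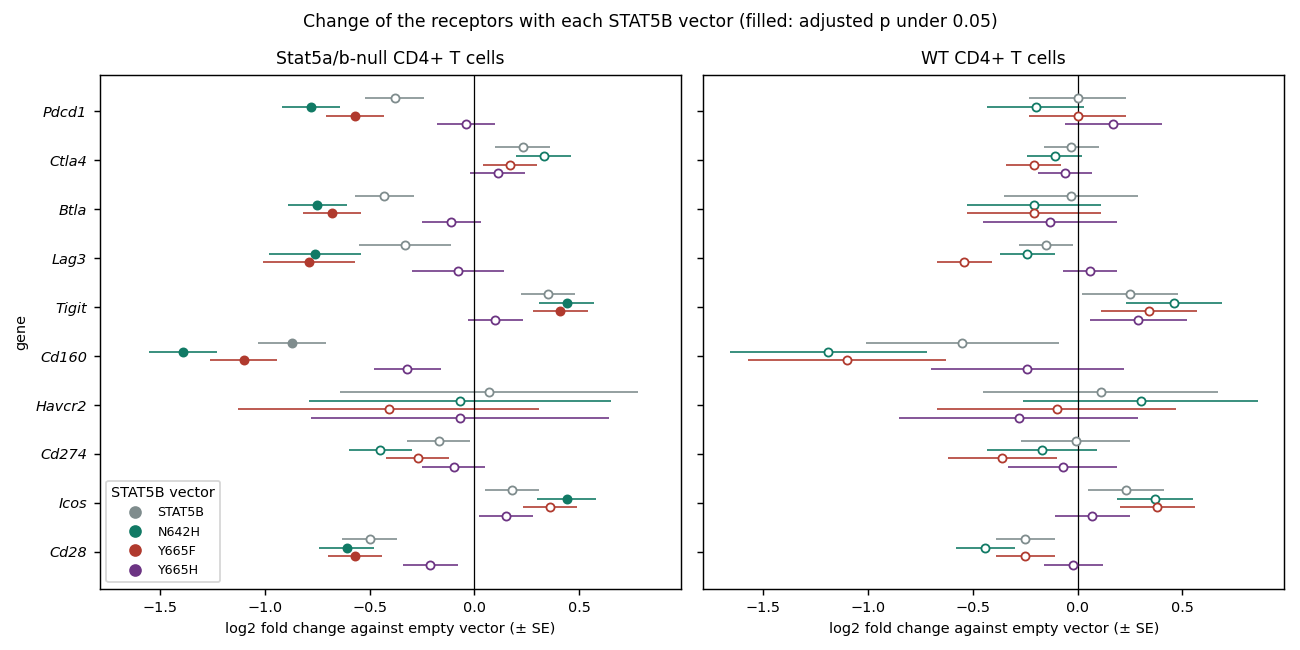
Log2 fold change against the empty vector (horizontal axes, ± SE) of each receptor with each STAT5B vector, in Stat5a/b-null (left) and WT (right) CD4+ T cells, 3 libraries a group. Filled points have an adjusted p under 0.05: 1 for STAT5B, 7 for N642H, 6 for Y665F and none for Y665H in null cells, and none in WT cells.

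Among the inhibitory receptors, *Cd160* was at 21.7, 26.9 and 29.9 CPM with native STAT5B, 17.5, 18.5 and 19.3 CPM with N642H, 18.7, 18.8 and 30.4 CPM with Y665F and 39.1, 35.5 and 37.8 CPM with Y665H. Every one of these libraries lay below the 3 empty-vector libraries. The log2 fold changes were −0.87 ± 0.16 for STAT5B (adjusted p = 0.00932), −1.39 ± 0.16 for N642H (adjusted p = 3.03e-05), −1.10 ± 0.16 for Y665F (adjusted p = 0.000303) and −0.32 ± 0.16 for Y665H (adjusted p = 0.896). Without STAT5B library 1 the first of these was −0.75 (adjusted p = 0.0798). With N642H and Y665F, *Cd160* was the one receptor that also met the study's fold criterion for a DEG, a log2 fold change beyond 1. Of all genes, 2.88% and 2.37% met it.

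*Pdcd1* read 208, 199 and 182 CPM with STAT5B, 164, 154 and 135 CPM with N642H, 189, 161 and 176 CPM with Y665F and 289, 226 and 219 CPM with Y665H. The N642H and Y665F libraries were all below the lowest empty-vector library at 204 CPM. N642H lowered it by −0.78 ± 0.14 (adjusted p = 0.00146) and Y665F by −0.57 ± 0.14 (adjusted p = 0.0155), the latter being −0.35 (adjusted p = 0.147) without empty-vector library 1 and −0.48 (adjusted p = 0.114) without Y665F library 2. *Btla* was at 450, 500 and 547 CPM with N642H and 457, 557 and 547 CPM with Y665F, below the empty-vector range of 689 to 892 CPM. Its log2 fold changes were −0.75 ± 0.14 (adjusted p = 0.0017) and −0.68 ± 0.14 (adjusted p = 0.00433).

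*Lag3* was more variable, with 141, 247 and 217 CPM in the empty-vector libraries, 89.5, 124 and 155 CPM with N642H and 96.8, 108 and 153 CPM with Y665F. The groups overlapped, and the changes of −0.76 ± 0.22 (adjusted p = 0.0334) and −0.79 ± 0.22 (adjusted p = 0.0317) each lost the call in 4 of their 6 leave-one-out fits. *Ctla4* changed by 0.23 ± 0.13 (STAT5B), 0.33 ± 0.13 (N642H, adjusted p = 0.119), 0.17 ± 0.13 (Y665F) and 0.11 ± 0.13 (Y665H), none past the threshold. *Tigit*, a receptor for the poliovirus receptor CD155, rose from 23.6, 24.2 and 31 CPM to 38.2, 36.9 and 34.4 CPM with N642H (0.44 ± 0.13, adjusted p = 0.0297) and to 37.5, 35.2 and 34.2 CPM with Y665F (0.41 ± 0.13, adjusted p = 0.0477). Both calls were lost without 4 and 5 of the 6 libraries in turn.

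The ligand *Cd274* changed by −0.45 ± 0.15 with N642H (adjusted p = 0.0554) and −0.27 ± 0.15 with Y665F (adjusted p = 0.307). Of the co-stimulatory receptors, *Cd28* and *Icos* moved in opposite directions. *Cd28* read 303, 364 and 333 CPM with N642H and 299, 360 and 368 CPM with Y665F, all below the empty-vector libraries (−0.61 ± 0.13, adjusted p = 0.00387, and −0.57 ± 0.13, adjusted p = 0.00789, or 0.0588 without Y665F library 1). *Icos* read 254, 312 and 236 CPM with N642H, all above the empty-vector range of 164 to 211 CPM (0.44 ± 0.14, adjusted p = 0.0408), and the call was lost without empty-vector library 3 (adjusted p = 0.127) and without N642H library 1 (adjusted p = 0.0629) or 2 (adjusted p = 0.23). With Y665F it differed by 0.36 ± 0.13 (adjusted p = 0.11).

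Regulatory T cell genes moved with these changes, and regulatory T cells are known for high *Ctla4*, *Icos* and *Tigit*. Of 9 such genes, 7 rose with N642H and 7 with Y665F, with a median log2 fold change of 1.71 for N642H, and *Foxp3*, their defining transcription factor, was at 3.18 to 10.8 CPM with the empty vector and 18.5 to 21.6 CPM with N642H. Their summed level was 1144 to 1331 CPM with the empty vector, 2842 to 3338 CPM with N642H and 2803 to 3316 CPM with Y665F. The list includes *Il2ra* and other genes that activated T cells also express. *Il2ra* alone went from a mean of 204 CPM with the empty vector to 1616 CPM with N642H and 1467 CPM with Y665F. The paper names it a known STAT5 target that was induced in these cells. *Ikzf2*, also on the list, had means of 99.5, 79 and 78 CPM in these groups. The part of the listed genes, or of regulatory T cells, in the receptor changes was not tested.

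Set directly against native STAT5B in null cells, Y665F changed none of the 10 receptors (0 at an unadjusted p under 0.05, 0 with DESeq2), against 0.0199% of genes. The differences ran from −0.47 for *Havcr2* and −0.46 ± 0.22 for *Lag3* (95% interval −0.93 to 0.01, adjusted p = 0.987) to 0.18 for *Icos*. Y665H against STAT5B also changed none (4 at an unadjusted p under 0.05, where 10.6% of genes were, and 1 with DESeq2), against 0.229% of genes (higher 0.0447%). For DESeq2 no share of all genes is given, here or in later comparisons. With the library number as a block, *Cd160* was higher by 0.55 (adjusted p = 0.0148) and *Pdcd1* by 0.33 (adjusted p = 0.0449) with Y665H, where 4.18% of genes passed. In both genes the 3 Y665H libraries lay above the 3 STAT5B libraries.

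The order of the 10 CD4+ groups was alike for several receptors. *Pdcd1*, *Btla*, *Lag3*, *Cd160*, *Cd274* and *Cd28* had their highest mean in null cells with the empty vector, and *Ctla4*, *Tigit* and *Icos* their lowest. No neighbours in the order of means differed past the threshold for any of the 10 genes. Of 45 pairs of groups, 24 differed for *Cd160*, 16 for *Pdcd1*, 12 for *Cd28*, 11 for *Btla*, 10 for *Lag3*, 7 for *Icos*, 2 for *Cd274* and none for *Ctla4*, *Tigit* or *Havcr2*. The pairs share libraries, and the share of all genes was not computed for each pair. Across the 10 group means of log2(CPM + 1), which share libraries by number and background, Pearson's r was 0.98 between *Pdcd1* and *Btla*, 0.97 between *Cd160* and each of them, and −0.96 between *Icos* and *Cd28*. Among 10166 genes with at least 5 CPM in a group, those most like *Pdcd1* were *Spp1* (r = 0.993), *Ppic* (0.992) and *Adss* (0.990), and most like *Cd160* were *Epb4.1l2* (0.996), *Itga9* (0.995) and *Trpa1* (0.995). *Hexa* (0.997), *Serpini1* (0.996) and *Ptpn11* (0.996) were most like *Btla*, and *Mllt3* (0.996), *Tbl1xr1* (0.995) and *Stk17b* (0.991) most like *Cd28*. For *Lag3* the nearest was *Cdkn1b* (0.989), for *Cd274* *Pacsin1* (0.988), for *Icos* *Egfl7* (0.994), for *Tigit* *Comtd1* (0.970) and for *Ctla4* *Cyb5r1* (0.953).

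In WT CD4+ cells, which keep their own STAT5, no vector moved any of the 10 receptors past the threshold. The background was 0.00975% of 20509 genes for STAT5B, 1.52% for N642H, 1.26% for Y665F (higher 0.746%, lower 0.512%) and 0.00488% for Y665H. At an unadjusted p under 0.05, 2 receptors differed with N642H (10.6% of genes), 2 with Y665F (14.3%) and none with the others, and DESeq2 called 1, 1 and none. Library numbers paired these libraries too, and with the number as a block 4 receptors passed for N642H and 3 for Y665F, where 8.28% and 12% of genes passed. *Cd160* was lower with both (−1.31, adjusted p = 0.000114, and −1.20, adjusted p = 0.000297), and *Icos* was higher with both (0.36, adjusted p = 0.0346, and 0.35, adjusted p = 0.0313). *Cd28* was lower (−0.44, adjusted p = 0.0167) and *Tigit* higher (0.45, adjusted p = 0.013) with N642H, and *Lag3* lower with Y665F (−0.56, adjusted p = 0.00284).

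*Cd160* shows the pairing. It read 6.38, 9.48 and 10.8 CPM in libraries 1, 2 and 3 with the empty vector, 1.91, 2.89 and 6.51 CPM with N642H and 2.03, 3.86 and 6.29 CPM with Y665F. Each N642H and Y665F library lay below the empty-vector library of its own number, although N642H library 3 exceeded empty-vector library 1. *Lag3* stood at 119, 150 and 145 CPM with the empty vector and at 105, 76.5 and 101 CPM with Y665F, without overlap and with a log2 fold change of −0.54 ± 0.13 (adjusted p = 0.0593 without the block). Without the libraries numbered 3, *Cd160* changed by −1.68 (adjusted p = 0.00709) with N642H and −1.40 (adjusted p = 0.0178) with Y665F. In these fits 1 receptor passed for N642H (5.59% of genes) and 3 for Y665F (7.78%).

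Without the library number as a block, the change with a vector was not shown to differ between the backgrounds for any receptor. No receptor passed the interaction test for STAT5B, N642H or Y665F, against 0.105%, 0.387% and 0.478% of 21975 genes (0, 1 and 1 receptors at an unadjusted p under 0.05, where 4.91%, 10.3% and 9.32% of genes were, and none with DESeq2). *Pdcd1* had interaction terms of −0.53 ± 0.29 for both N642H (adjusted p = 0.533) and Y665F (adjusted p = 0.583), the latter passing with the number as a block within each background (adjusted p = 0.036; 4.11% of genes). Null cells given native STAT5B still had more *Cd160* than WT cells with the empty vector (1.55 ± 0.35, adjusted p = 0.0224), the one receptor of 10 past the threshold where 1.11% of genes were (higher 0.614%). That call was lost without either STAT5B library 2 (adjusted p = 0.0571) or 3 (adjusted p = 0.145), and without WT library 1 (adjusted p = 0.202) or 2 (adjusted p = 0.124).

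Other genes of the co-receptor pathways were counted from 4 lists. Of all genes, 5.67% were higher and 5.97% lower with N642H in null cells, and 5.16% were higher and 4.42% lower with Y665F. Of 12 ligand genes, N642H in null cells raised 3 and lowered 1, and Y665F raised 2 and lowered 1. *Cd80*, the B7 ligand shared by CD28 and CTLA-4, rose from a mean of 15.4 CPM to 56.1 CPM with N642H (1.83 ± 0.22, adjusted p = 4.86e-05) and to 56.8 CPM with Y665F (1.85 ± 0.22, adjusted p = 4.97e-05). In WT cells it rose with both by 1.05 ± 0.24 (adjusted p = 0.0357 and 0.0421). *Tnfrsf14*, the ligand of BTLA and CD160, fell from 27.9 to 15.4 CPM with Y665F in null cells (−0.89 ± 0.14, adjusted p = 0.00084). *Icosl*, the ligand of ICOS, was at a mean of 1.98 CPM in null and 13.8 CPM in WT cells with the empty vector (−2.80 ± 0.35, adjusted p = 2.99e-06).

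Of 11 other co-receptors tested, 2 fell with N642H and 1 with Y665F in null cells, and none rose. Of all genes, 5.97% and 4.42% were lower in these 2 comparisons. *Cd96*, which like TIGIT binds CD155, went from 153 to 70.8 CPM with N642H (−1.16 ± 0.34, adjusted p = 0.0331). Of 15 signalling genes, 3 rose and 3 fell with N642H, and 3 rose and 1 fell with Y665F. *Ptpn11*, encoding the phosphatase SHP-2 that PD-1 and BTLA recruit, was lower with STAT5B (−0.71 ± 0.14, adjusted p = 0.0133), N642H (−1.01 ± 0.14, adjusted p = 0.000137) and Y665F (−0.92 ± 0.14, adjusted p = 0.000394). Of 12 transcription factors, 4 fell with N642H and 3 with Y665F, and none rose. *Bcl6*, the factor of follicular helper T cells, fell from 32.4 CPM to 11.5 CPM with STAT5B, 6.34 CPM with N642H (−2.39 ± 0.22, adjusted p = 1.88e-06) and 7.44 CPM with Y665F (−2.16 ± 0.21, adjusted p = 6.74e-06). The 5 follicular helper T cell genes, *Bcl6* among them, did not fall as a set. With N642H and with Y665F 1 was higher and 2 were lower, with median log2 fold changes of 0.18 and −0.19.

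In splenic T cells cultured with interleukins, the question was how a knock-in variant sets the receptors. Y665F cells had more *Cd274* than WT cells, the one receptor of 10 past the threshold, against 1.44% of 22295 genes (higher 1.11%, lower 0.327%). At an unadjusted p under 0.05 there were 5 receptors (18.1% of genes), and DESeq2 called 4, with no share of all genes given. Y665H cells differed from WT in none of 10 (2 at an unadjusted p under 0.05, 0 with DESeq2), and none of the 22295 genes passed in edgeR (4.81% at an unadjusted p under 0.05). Y665F against Y665H gave 3 of 10, with *Cd274* and *Cd160* higher and *Cd28* lower, against 2.74% of genes (higher 1.95%, lower 0.789%). These 4 calls all met the fold criterion for DEGs. The WT and Y665H comparisons share the Y665F libraries. Median log2 fold changes of the receptors were 0.45 (Y665F against WT), −0.28 (Y665H against WT) and 0.48 (Y665F against Y665H), and those of all genes 0.08, −0.12 and 0.15. With the summed Y665H file also counted as a library, an alternative chosen after seeing the data, 3 receptors passed for Y665F against WT (1.87% of genes) and 5 against Y665H (6.18%).

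*Cd274* was at 237, 149, 266 and 403 CPM in the Y665F libraries and 102, 67.7, 84.6 and 43.9 CPM in the WT ones. Without interleukins, Y665F cells read 55.2, 60.2 and 43.2 CPM, and Y665H cells with interleukins 35.7, 80 and 64 CPM. The Y665F libraries with interleukins were above every other library. The log2 fold changes were 1.82 ± 0.29 against WT (adjusted p = 0.00219), 2.14 ± 0.33 against Y665H (adjusted p = 0.000578) and 2.32 ± 0.33 against Y665F without interleukins (adjusted p = 6.47e-05). *Cd274* and *Cd28* were the only receptors past the threshold in the last comparison, 2 of 10 against 3.08% of genes (higher 2.36%, lower 0.718%). Whether the cells without interleukins were cultured is not given, so interleukins and culture cannot be told apart in it.

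B cells can express PD-L1, and the 2 Y665F libraries with the highest *Cd274* were those with B cell genes at 724 and 213 CPM. Libraries 1 and 2, where the B cell genes summed to 22.7 and 40 CPM, within the WT range of 14.9 to 113 CPM, had *Cd274* at 237 and 149 CPM, above the WT maximum of 102 CPM. With libraries 3 and 4 left out, an alternative chosen after seeing the data, the change against WT was 1.35 (adjusted p = 0.111) and no receptor passed, where 0.0408% of genes did. In that fit *Cd274* alone passed against Y665H (1.66, adjusted p = 0.0102; 0.924% of genes), and *Cd274* (1.86, adjusted p = 0.00063) and *Cd28* (−1.09, adjusted p = 0.0315) passed against Y665F without interleukins, where 5.75% of genes did. Neutrophil genes stood higher in Y665F as well, at 61.4 to 214 CPM against 4.5 to 11.4 CPM in WT libraries, and their part was not tested.

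*Cd160* read 20.8, 23.7, 25.2 and 22.8 CPM in Y665F against 13.5, 13.3, 10.7 and 7 CPM in WT and 7.53, 9.63 and 8.41 CPM in Y665H cells. Y665F was above both without overlap. The difference from Y665H was 1.45 ± 0.34 (adjusted p = 0.0158), and the call was lost without Y665H library 1 or 3 (adjusted p = 0.0766 each). That from WT was 1.06 ± 0.29 (95% interval 0.47 to 1.65) and missed the threshold (adjusted p = 0.062), which it passed with RLE factors (adjusted p = 0.0241) and DESeq2 (adjusted p = 0.00103). Without interleukins the Y665F libraries spread over 11.4, 28.7 and 17.6 CPM. NK cell genes, which *Cd160* accompanies in NK cells, summed to 135 to 181 CPM in Y665F, 65.5 to 246 CPM in WT and 38.5 to 80.3 CPM in Y665H libraries, and 2 of the 4 tested were higher in Y665F than Y665H. Effector and memory CD8+ T cell genes summed to 289 to 576 CPM in Y665F, 177 to 310 CPM in WT and 103 to 120 CPM in Y665H libraries, with 3 of 7 higher in Y665F than Y665H and 1 of 7 higher than WT. The part of either in the result was not tested.

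*Cd28* read 151, 177, 53.7 and 93.8 CPM in Y665F cells with interleukins, 343, 258, 178 and 272 CPM in WT cells and 246, 367 and 439 CPM in Y665H cells. Every Y665F library was below every WT and Y665H library. It was lower than Y665H by −1.56 ± 0.32 (adjusted p = 0.00659) and than Y665F without interleukins by −1.54 ± 0.32 (adjusted p = 0.00407, or 0.0799 without library 3 of the cells without interleukins). The difference from WT was −1.14 ± 0.30 (95% interval −1.75 to −0.53), just outside the threshold (adjusted p = 0.0528) and within it with RLE factors (adjusted p = 0.0385) and DESeq2 (adjusted p = 0.00606). Library 3, the lowest, was also the library with the most B cell genes, and T cell genes summed to 873 to 2643 CPM in Y665F against 2116 to 3500 CPM in WT and 2076 to 2341 CPM in Y665H cells. None of the 12 T cell genes was higher and 1 was lower in Y665F than WT, with a median log2 fold change of −0.78. *Cd4*, *Zbtb7b* and *Cd40lg*, genes of CD4+ T cells, summed to 86.6 to 244 CPM in Y665F, 351 to 422 CPM in WT and 235 to 402 CPM in Y665H cells. Their part in the *Cd28* result was not tested.

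*Tigit* was sparse, at 4.28, 8.01, 5.87 and 9.01 CPM in Y665F cells with interleukins, 4.35, 2.55, 1.97 and 1.06 CPM in WT and 1.12, 3.85 and 1.37 CPM in Y665H cells. All Y665F libraries were above those of Y665H, by 1.90 ± 0.53 (95% interval 0.80 to 2.99), a difference just outside the threshold (adjusted p = 0.0525). Against WT the value was 1.47 ± 0.42 (adjusted p = 0.0733). Y665F cells without interleukins had 8.37, 15.7 and 9.21 CPM, and the difference between Y665F cells with and without them did not pass (−0.70 ± 0.43, adjusted p = 0.445). *Ctla4* read 123, 140, 56.1 and 105 CPM in Y665F, 95.1, 96.3, 74.3 and 85.9 CPM in WT and 13.4, 55.9 and 65.8 CPM in Y665H cells. Y665F and Y665H overlapped, and their difference of 1.23 ± 0.36 did not pass (95% interval 0.48 to 1.98, adjusted p = 0.0689). That of Y665H from WT was −0.96 ± 0.36 (adjusted p = 0.943), although all 3 Y665H libraries lay below the WT ones. Both genes passed against Y665H with DESeq2 (adjusted p = 0.0061 for *Tigit* and 0.0137 for *Ctla4*). Regulatory T cell genes, which accompany *Ctla4* and *Tigit*, summed to 370 to 723 CPM in Y665F, 415 to 546 CPM in WT and 232 to 380 CPM in Y665H cells, and 2 of 9 were higher and 1 lower in Y665F than Y665H. Their part was not tested.

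*Icos* and *Btla* did not pass in these comparisons, at −0.13 ± 0.27 and −0.24 ± 0.27 for Y665H against WT. *Pdcd1* was at 3.96 to 10.9 CPM in WT cells and 0.881 to 5.28 CPM in Y665F cells (−0.87 ± 0.41, adjusted p = 0.269), far below its level in the CD4+ cells activated through their antigen receptor. *Lag3* was at 1.44 CPM or less in the WT libraries and *Havcr2* at 2.58 CPM or less.

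**Figure D3:**
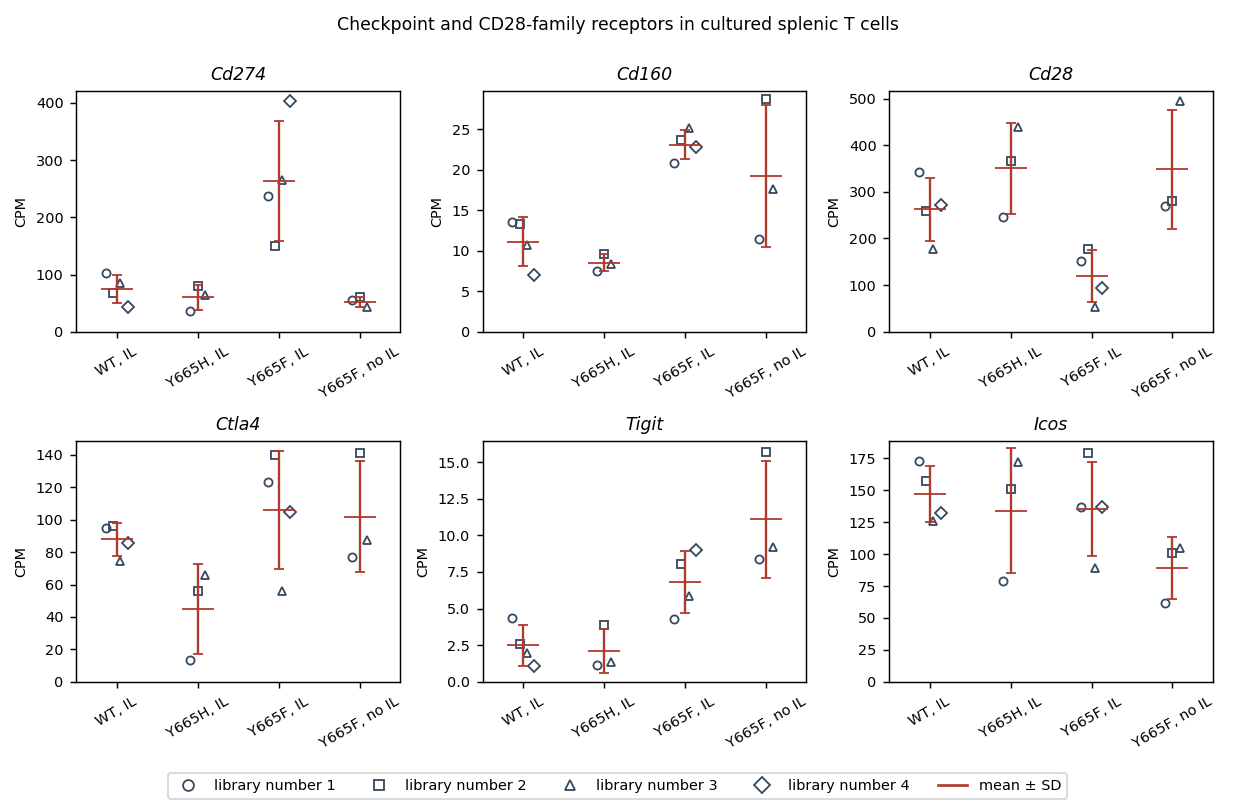
CPM (vertical axes from 0) of 6 receptor genes in splenic T cells cultured with interleukins (IL) from WT (4 libraries), Y665H (3) and Y665F (4) mice, and in Y665F T cells without interleukins (3). Symbols are libraries by number and bars are the mean ± SD; *Cd274* in Y665F with interleukins (149 to 403 CPM) lies above all others (35.7 to 102 CPM).

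The ligand list was counted in these cells too, where 1.11% of all genes were higher and 0.327% lower in Y665F than WT. Of the 12 ligand genes, 3 were higher and none lower. *Pdcd1lg2*, the other PD-1 ligand (2.27 to 8.82 CPM; 1.96 ± 0.42, adjusted p = 0.0177), *Cd80* (2.69 to 9.26 CPM; 1.77 ± 0.41, adjusted p = 0.0267) and *Cd86* (11.2 to 28.3 CPM; 1.33 ± 0.31, adjusted p = 0.025) were these genes, the CPM being WT and Y665F means. B cells express these ligands too, and of 8 B cell genes 1 was higher, with a median log2 fold change of 2.30. Among the signalling genes, *Trat1*, an adaptor of the antigen receptor complex, was lower (72.2 to 26.7 CPM; −1.42 ± 0.27, adjusted p = 0.00887). *Trat1*, *Lck* and *Cd5* are also among the 12 T cell genes. Of the transcription factors, *Tbx21* was higher in Y665F than Y665H (1.81 ± 0.37, adjusted p = 0.00718).

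In spleens, the comparison asked for the receptors' steady state in the animals. Y665F spleens had more *Ctla4*, *Tigit* and *Icos* and less *Havcr2* and *Btla* than WT spleens, 5 of 10 receptors against 12.2% of 19418 genes (higher 5.63%, lower 6.59%). Y665H spleens had less *Btla*, *Cd160*, *Cd28* and *Havcr2*, 4 of 10 against 19.8% of genes (lower 9.05%). Y665F exceeded Y665H in 6 of 10, namely *Ctla4*, *Cd28*, *Tigit*, *Icos*, *Cd160* and *Cd274*, against 25.8% of genes (higher 10.5%). Median log2 fold changes of the receptors were 0.25, −0.31 and 0.41 and those of all genes 0.00, 0.00 and −0.01. The 3 comparisons share libraries in pairs, and library numbers did not pair the spleens.

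*Ctla4* read 17.6, 15.3, 12.6 and 14.6 CPM in WT, 15.2, 8.66, 11.6, 11.6 and 9.73 CPM in Y665H, and from 19.1 through a median of 24.4 to 32.8 CPM in Y665F spleens. All 7 Y665F spleens were above every other spleen, with log2 fold changes of 0.77 ± 0.15 against WT (adjusted p = 0.0039) and 1.17 ± 0.14 against Y665H (adjusted p = 2.63e-05). *Icos* ranged from 35.5 to 43.2 CPM (median 38.7) in Y665F, above WT at 31.1, 34.1, 28 and 29.3 CPM (0.37 ± 0.10, adjusted p = 0.0254, or 0.0606 without WT spleen 1 and 0.0508 without WT spleen 4) and Y665H at 20 to 31.6 CPM (0.59 ± 0.10, adjusted p = 0.000352). *Tigit* ranged from 3.88 to 7.12 CPM (median 5.45) in Y665F against 2.94 to 4.06 CPM in WT (0.69 ± 0.14, adjusted p = 0.00398), and 1 WT spleen exceeded the lowest Y665F spleen. Y665H at 3.2 to 3.83 CPM lay below all Y665F spleens (0.67 ± 0.13, adjusted p = 0.00105).

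*Cd28* was lower in Y665H, at 82.7, 54.5, 59.5, 69.4 and 60 CPM, than in WT, at 88.3, 108, 73.8 and 92.7 CPM (−0.47 ± 0.12, adjusted p = 0.00868, or 0.0571 without WT spleen 2). In Y665F it ranged from 94.5 to 114 CPM (median 111), above Y665H without overlap (0.69 ± 0.10, adjusted p = 0.000179). *Cd160* was at 10.8 to 12.3 CPM in Y665H, below WT at 14.9 to 20.5 CPM (−0.60 ± 0.09, adjusted p = 0.000979) and Y665F at 14.9 to 16.8 CPM (0.48 ± 0.08 for Y665F over Y665H, adjusted p = 0.000409). NK cell genes summed to 43.1 to 72 CPM in Y665H, at a median of 128 CPM in WT and to 64 to 141 CPM in Y665F spleens, and 4 of the 5 tested were lower in Y665H than WT. Their part in the *Cd160* result was not tested.

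*Btla* was at 724, 819, 583 and 676 CPM in WT, 573, 343, 413, 505 and 382 CPM in Y665H (−0.66 ± 0.13, adjusted p = 0.0027) and 468 to 587 CPM (median 518) in Y665F (−0.39 ± 0.12, adjusted p = 0.041). *Btla* in Y665F and WT spleens overlapped, and the Y665F call was lost in 8 of its 11 leave-one-out fits. B cell genes were lower as well: 3 of 8 in Y665F (3060 to 3840 CPM in sum, below the WT range of 4036 to 4599 CPM) and 4 of 8 in Y665H (3068 to 4423 CPM), and their part was not tested. *Havcr2* at 52.6 to 65.2 CPM in WT exceeded Y665F at 41.9 to 47.6 CPM (−0.43 ± 0.09, adjusted p = 0.00671), whereas Y665H at 35.6 to 53.6 CPM overlapped WT (−0.43 ± 0.10, adjusted p = 0.00641). Of the myeloid genes, 2 of 6 dendritic cell genes were lower in Y665F and 4 of 6 in Y665H (355 to 388 CPM in sum in WT, 318 to 362 CPM in Y665F and 229 to 329 CPM in Y665H). Macrophage genes were lower in 1 of 8 (Y665F) and 0 of 8 (Y665H), and neutrophil genes were higher in 4 of 6 and 6 of 6. Their part in the *Havcr2* result was not tested. *Cd274* differed by 0.23 ± 0.06 between Y665F and Y665H (adjusted p = 0.0157). *Pdcd1* and *Lag3* did not pass in any spleen comparison, with means of 4.56 to 5.58 and 6.91 to 9.23 CPM.

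T cell genes differed between the spleens as well. Of 12 T cell genes such as *Cd3e* and *Lck*, 8 were higher in Y665F than WT spleens, 6 were lower in Y665H, and 12 were higher in Y665F than Y665H, with median log2 fold changes of 0.72, −0.43 and 1.00. Their summed level was 578 to 718 CPM in WT, 427 to 648 CPM in Y665H and 790 to 1133 CPM in Y665F spleens. Y665H spleens also had more erythroid transcript, at 769 to 5126 CPM against 716 to 1586 CPM in WT, and 4 of 5 erythroid genes tested were higher. Y665H spleen 1 stood apart from its group. Its mean log2(CPM + 1) of the T cell genes was 5.49, inside the WT range of 5.30 to 5.63, against 4.92 to 5.04 in the other Y665H spleens. It also had the highest *Ctla4*, *Btla* and *Cd28* of its group (15.2, 573 and 82.7 CPM). Apart from the leave-one-out fits, its part in the Y665H results was not tested. *Foxp3* was at 6.67 to 8.89 CPM in WT, 6.21 to 11.2 CPM in Y665H and 15.3 to 21.9 CPM in Y665F spleens. Of 9 regulatory T cell genes, 6 were higher and 1 was lower in Y665F than WT.

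Each receptor was therefore also expressed relative to the T cell genes, as log2(CPM + 1) minus the mean log2(CPM + 1) of the 12, and compared by two-sided exact permutation tests with adjustment over 30 tests. This subtraction shifts every gene of a spleen by the same amount. A gene of unchanged level therefore reads lower where T cell genes are higher, and higher where they are lower. The share of all genes past the threshold on this scale was not computed. On this scale no receptor was higher in Y665F than in WT or Y665H spleens at the threshold. *Ctla4*, *Tigit* and *Icos* differed between Y665F and WT by 0.12 (exact permutation test, adjusted p = 0.469), −0.05 (adjusted p = 0.786 by the same test) and −0.24 (exact permutation test, adjusted p = 0.111). *Havcr2* (−1.03), *Btla* (−0.98), *Cd160* (−0.71) and *Cd274* (−0.57) were lower in all 7 Y665F spleens than in every WT spleen (exact permutation test, adjusted p = 0.0165 each), and *Cd28* was lower by −0.38 (exact permutation test, adjusted p = 0.039). Against Y665H, 8 of 10 receptors were lower in Y665F and none higher. These included *Pdcd1* (−1.02), *Havcr2* (−0.98) and *Cd28* (−0.30), each with an adjusted p of 0.0126 by the exact permutation test. *Ctla4* at 0.11 (exact permutation test, adjusted p = 0.27) and *Tigit* at −0.46 (exact permutation test, adjusted p = 0.0556) were the exceptions. Before the subtraction *Pdcd1* differed between Y665F and Y665H by −0.02, *Havcr2* by 0.02 and *Cd28* by 0.70. In Y665H against WT, *Pdcd1* alone passed, higher by 0.64 with all 5 Y665H spleens above the WT ones (exact permutation test, adjusted p = 0.0366). Before the subtraction its difference was 0.24 (exact permutation test, adjusted p = 0.238). The smallest p these group sizes allow is 0.00606, 0.0159 and 0.00253 for the 3 comparisons. *Btla*, *Havcr2* and *Cd274* are not confined to T cells, so their ratio to T cell genes does not give a level per T cell.

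**Figure D4:**
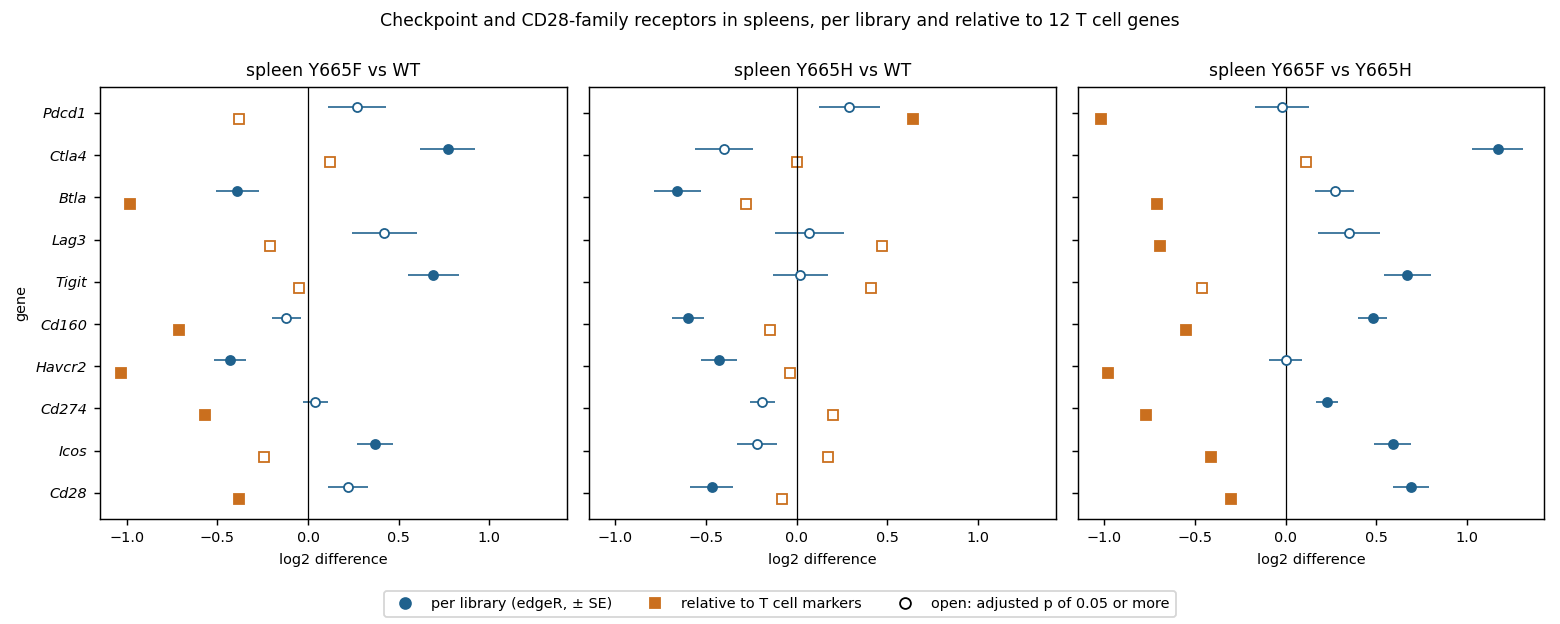
Log2 difference (horizontal axes) of each receptor between spleens of 7 Y665F, 5 Y665H and 4 WT mice, per library (blue circles, edgeR, ± SE) and relative to the mean of 12 T cell genes (orange squares, no error drawn). Filled symbols have an adjusted p under 0.05; between Y665F and Y665H, 6 circles are filled above 0 and 8 squares below 0.

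Among the pathway genes in spleens, signalling genes followed the T cell genes, with 9 of 15 higher and 1 lower in Y665F than Y665H. Of all genes, 10.5% were higher and 15.3% lower in that comparison. *Prkcq*, the kinase that CD28 signals engage, was at means of 154 and 71.5 CPM (1.10 ± 0.09, adjusted p = 3.19e-07). Of the other co-receptors 5 of 11 were higher in Y665F than Y665H, among them *Cd226*, the activating partner of TIGIT (78.9 and 40.9 CPM; 0.95 ± 0.07, adjusted p = 1.39e-07), and *Cd96* (53.1 and 22.3 CPM; 1.25 ± 0.14, adjusted p = 6.89e-06). The ligand *Cd86*, carried by antigen-presenting cells, was lower than WT in both Y665F (−0.43 ± 0.08, adjusted p = 0.00304) and Y665H (−0.34 ± 0.09, adjusted p = 0.0129). *Eomes*, a factor of memory and cytotoxic T cells, was lower in Y665H than WT (−0.79 ± 0.14, adjusted p = 0.00183).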

How the data were processed

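Total RNA-seq libraries were made by the authors with a stranded, rRNA-depleted kit; per their processing notes, reads were trimmed with Trimmomatic 0.36, aligned with STAR to mm10 and counted with HTSeq 0.9.1. The strand setting is not given in the sources used here. The deposited files hold raw read counts per gene, 1 file per library, and 5 summary lines were left out. Groups came from the titles.

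Counts were fitted with edgeR 4.0.16 (R 4.3.3; TMM factors, genes with at least 10 reads over the fit, quasi-likelihood F-test) in 5 fits: null CD4+, WT CD4+, all CD4+, splenic T cells and spleens. Adjusted p-values (Benjamini-Hochberg) cover all genes of a fit, with a threshold of 0.05; a DEG also needed a log2 fold change beyond 1, as in the study. SE is the log2 fold change over the root of F, and 95% intervals use the t quantile at the residual degrees of freedom of the test. Levels are TMM-scaled CPM within an experiment, and CPM per kb uses GENCODE M21 exon lengths. The study calls replicates of the CD4+ cells biologically independent, but no label ties a library to an animal, so p-values measure the spread between libraries. Y665H splenic T cell library 4 was the gene-by-gene sum of libraries 1 and 2 and was left out, so that fit holds 14 libraries in place of the 15 planned. No other library was such a sum, no 2 of the 61 were identical, and among the 88 pairs within groups the lowest chi-square per degree of freedom was 3.23. That pair was Y665H splenic T cell libraries 2 and 3, which were both kept. Libraries 1 and 2 of that group gave 17.15, and library 1 and the summed library 4, which share reads, gave 3.78. Whether libraries 2 and 3 are independent was not tested.

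Same-numbered libraries deviated together in null cells (30 of 30 pairs with r over 0.1, lowest 0.242) and in WT cells (30 of 30, lowest 0.112), so values with the number as a block stand beside those results. The numbers paired neither the 2 backgrounds (34 of 75 pairs), the splenic T cells (5 of 19) nor the spleens (4 of 13).

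The receptors and all gene lists were chosen with earlier results of these data known. Genes named from the pathway lists were up to 3 per list and comparison with an adjusted p under 0.05, a mean of at least 1 CPM, no overlap and the largest change. The genes most like a receptor were the 3 with the highest r over 10 group means, of which the nearest is given for some. *Foxp3* and the other marker genes served as checks. In simulated counts, 192 of 200 changed genes were recovered for null N642H against empty vector, and 144 of 200 for splenic Y665F against WT (2-fold changes, 45 of 100). The changed genes were drawn above a minimum level and changed 2-fold or more, and pairing by library number was not simulated. The recovery therefore says nothing of smaller changes or of sparse genes. Alternatives were RLE or no scaling, other filters, DESeq2 1.42.0, the compared groups alone, the block, deeper libraries, leaving out each library and, after seeing the data, omitting or adding the libraries named in the comparisons. The precision of a single count covers sampling of reads only. A gene of the signalling list is not reported here by name.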

Additional observations from a re-analysis of the deposited data

Results flagged for a closer look

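In cultured splenic T cells, Y665F library 3 was far from the other 3 libraries of its group for *Pdcd1* (0.881 CPM) and *Havcr2* (4.11 CPM), by the 95% limit of Dixon's ratio. Chance alone flags about 1 in 20 groups, and 50 groups of genes and libraries were examined, of which 2 were flagged. That library had 2851451 reads and B cell genes summing to 724 CPM, the highest sum of its group.

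With both N642H and Y665F, *Ctla4* lay above the mean of the empty-vector libraries in every null library and below it in every WT library. The differences between the 2 effects, on the log2(CPM + 1) scale, were 0.50 and 0.42, and the interaction test did not pass (adjusted p = 0.36 and 0.499).

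Some effects had opposite signs in every library of the cultured splenic T cells and of the spleens. For Y665F against WT these were *Havcr2* (difference of 1.08), *Cd160* (1.13) and *Cd28* (−1.47), and for Y665H against WT *Havcr2* (1.07). These differences were not tested, and the 2 kinds of sample differ in cell makeup and culture.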

How the results depend on the processing

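Of 407 recomputed counts of receptors past the threshold, 330 stayed within 1.5 times the main count and 77 did not; the cause of these shifts was not tested unless fewer libraries entered the fit. For native STAT5B in null cells, 1 receptor became 2 with RLE factors, with library totals alone, with filterByExpr or with no filter, 3 with DESeq2 and 4 with the replicate block, and leaving out 1 library gave 0 to 3. Leave-one-out fits gave 4 to 8 for N642H (main 7) and 3 to 6 for Y665F (main 6), and Y665F gave 3 when the compared groups were fitted alone. Y665H against STAT5B in null cells (main 0) gave 2 with the block and 1 with DESeq2. In WT cells (main 0), N642H gave 4 with the block, 1 with DESeq2 and 1 without the libraries numbered 3, and Y665F gave 3, 1 and 3, besides 1 with filterByExpr, 1 with no filter and 0 to 1 leaving out 1 library. For null against WT cells with the empty vector (main 4), the block gave 8 (18.6% of genes), with *Ctla4* (−0.37, adjusted p = 0.0429) and *Icos* (−0.38, adjusted p = 0.0233) lower and *Lag3* and *Cd274* added as higher, omission of the WT libraries numbered 3 gave 7 (17.4%) and leave-one-out fits 3 to 5. The numbers did not pair these 2 backgrounds. For null STAT5B against WT empty vector (main 1) the block, DESeq2 and the groups alone each gave 2, omission of the libraries numbered 3 gave 3, and leave-one-out fits 0 to 2. The Y665F interaction (main 0) gave 1 with the block and 1 without the libraries numbered 3. In splenic T cells, Y665F against WT (main 1) gave 3 with RLE factors, library totals alone, filterByExpr or the summed Y665H library added, 2 with no filter or without the shallow libraries (Y665F 3, Y665H 1 and 2), 4 with DESeq2, 0 without Y665F libraries 3 and 4 and 1 to 4 leaving out 1 library. Y665F against Y665H (main 3) gave 5 with no filter, DESeq2 or the summed library, 1 without the shallow libraries, 1 without Y665F libraries 3 and 4 and 2 to 5 leaving out 1 library, and interleukins against none (main 2) gave 1 to 2. In spleens, Y665F against WT (main 5) gave 2 with the block and 3 to 6 leaving out 1 spleen, and Y665H against WT (main 4) gave 3 to 6. Library numbers did not pair the T cells or spleens, and within null or WT CD4+ cells the block changed no call beyond those given in the comparisons. A log2 fold change beyond 1 left 0 receptors for STAT5B (0.477% of genes), 1 for N642H (2.88%) and 1 for Y665F (2.37%) in null cells. It left 2 for null against WT cells (4.68%). In spleens it left 0 for Y665F against WT (1.20%), 0 for Y665H against WT (4.37%) and 1 for Y665F against Y665H (5.28%). The share of all genes past the threshold moved with the setting too, as from 1.52% to 9.5% with the block for native STAT5B in null cells. Where no share stands beside a count, the count cannot be set against that of all genes.

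Without division by the T cell genes the direction turned for Y665F against Y665H in *Btla* (0.29), *Lag3* (0.31), *Havcr2* (0.02), *Tigit* (0.53), *Cd160* (0.45), *Cd274* (0.23), *Icos* (0.59) and *Cd28* (0.70), and for Y665F against WT in *Pdcd1* (0.22), *Lag3* (0.39), *Tigit* (0.55), *Cd274* (0.04), *Icos* (0.36) and *Cd28* (0.23). It turned for Y665H against WT in *Ctla4* (−0.39, from 0.00), *Cd274* (−0.19) and *Icos* (−0.22). Under it 2 receptors differed between Y665H and WT spleens (main 1). Leaving out 1 spleen gave 0 there, but the smallest exact p is then 0.0286 or 0.0357, which passes only if 18 or 22 of the 30 tests reach it, against 14 passed with all spleens, so these fits say nothing of stability. In splenic T cells 1 Y665H library was left once the shallow ones were omitted and is assumed to vary like the others. *Lag3* and *Havcr2* were at few reads there, and the part of depth in the calls was not tested.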
